A study of Mus musculus with 6 samples.

Results

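The cornified envelope is the layer of crosslinked protein that replaces the plasma membrane of a squamous cell at the end of its life, and its genes were followed here in mouse airway basal cells. The set held 10 genes, all found by symbol among the 56748 genes of the deposited table: the precursor genes Ivl, Sprr1a, Sprr1b and Sprr3, the envelope component Cnfn, the secreted protein genes Sbsn, Dmkn and Ecm1, and the transglutaminase genes Tgm1 and Tgm3. RNA was sequenced from primary airway basal stem cells of wild-type mouse trachea, in 3 libraries of cells cultured for 4 days with UK-5099, which blocks pyruvate uptake into mitochondria, and 3 of cells cultured with Y-27632, A8301 and DMH-1. Of these, A8301 blocks TGF-beta receptor signalling and DMH-1 blocks BMP receptor signalling, the last pair being known as dual SMAD inhibition. An untreated culture was not analysed here, so a difference does not say which treatment moved the gene. The labels give no age, sex, dose or number of animals, and leave unsaid whether Y-27632 was present beside UK-5099. Nor do they say that replicates were separate cultures or animals. The p-values therefore cover the spread among these 6 libraries, part of which may be technical.

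In stratified epithelia, involucrin is laid down early beneath the membrane, and small proline-rich (SPRR) proteins are crosslinked to it as cells mature. Transglutaminases make these bonds between glutamine and lysine residues, after which loricrin and late cornified envelope proteins reinforce the layer. Airway epithelium does not normally cornify, but its basal cells can take a squamous path in culture or after injury.

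Levels are given as normalized counts, which are reads per gene divided by a size factor of the library, with the SD over 3 libraries. A log2 fold change is the UK-5099 mean minus that of the 3 inhibitors, with the standard error of the limma fit, and adjusted p-values come from that fit over the 15704 genes whose mean reached 10 normalized counts. All 10 genes were higher with UK-5099 at an adjusted p under 0.05, where 53.8% of all genes tested were called, 27.2% as higher and 26.6% as lower. Of these 10, 9 were at least 2-fold higher, against 4.67% of all genes tested, and 6 were at least 4-fold higher, against 1.01%. Tgm3 is counted in both. The genes were chosen with earlier results of these data known, so the counts beside these shares are descriptions only. The median log2 fold change was 2.47 over the 10 genes and -0.00 over all genes tested. In each of the 10 the lowest UK-5099 library stood above the highest 3-inhibitor library, which held for 30.7% of all genes tested. Tgm3 passed the count minimum only through its UK-5099 values, and the other 9 genes had a mean above it in both groups. In bulk RNA, more cells that express a gene and more RNA per cell cannot be told apart.

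**Figure D1:**
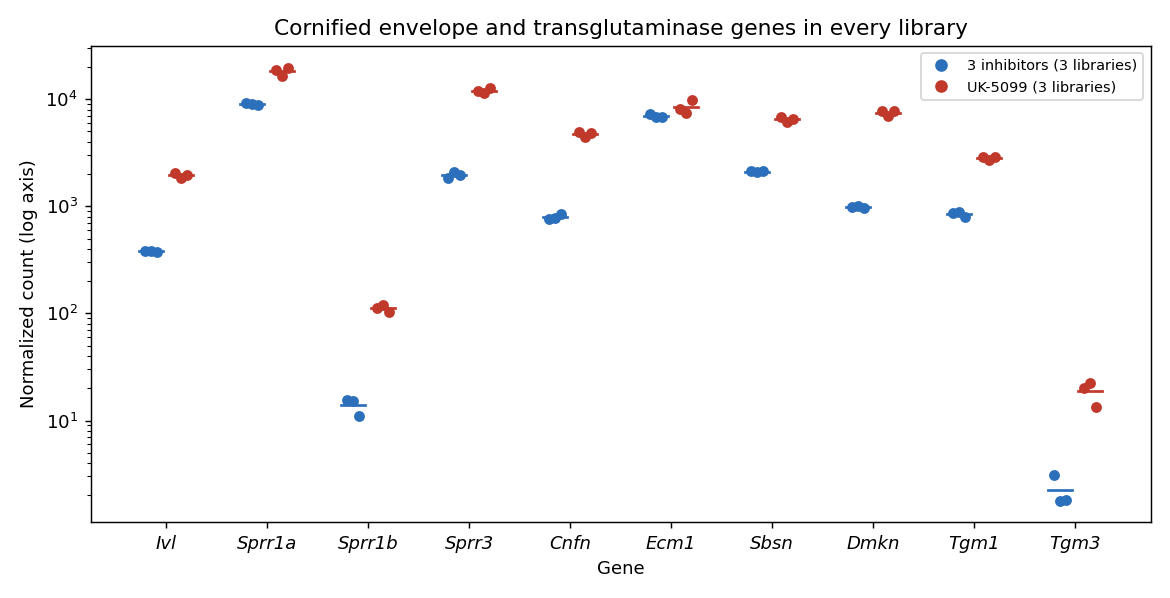
Normalized counts (log axis) of the 10 genes in each of the 6 libraries, with points for libraries and bars for group means. The UK-5099 points stand above the 3-inhibitor points for each gene, with wide gaps for Sprr1b and Dmkn and the narrowest for Ecm1.

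The 250 bases before the starts of the 10 genes were read from RefSeq (GRCm38.p6), which held 13 such windows. Motifs were searched on both strands after the sequences had been seen. The AP-1 motif TGANTCA, the site of FOS and JUN factors, which control many keratinocyte genes, was present in windows of 6 of the 10 genes, and in 7.82% of all 27025 genes with a window. The 6 were Sprr1a, Sprr1b, Ivl, Ecm1, Sbsn and Dmkn. The motif was not found in these windows of Sprr3, Cnfn, Tgm1 and Tgm3. A TATA motif (TATAAA) was present for 6 of the 10 genes and for 14.3% of all genes. The Grainyhead-like motif AACNNGTT was present for 0 of the 10 and for 4.11% of all genes. The motifs did not overlap each other in these windows, and a match is a description of the letters only. The upstream windows of 5 genes are shown to compare the position of the AP-1 match, which is in capitals, in genes whose log2 fold changes ran from 0.28 (Ecm1) to 2.93 (Dmkn and Sprr1b). Each ends at the base before the start of the transcript.
Sprr1a, chr3:92485882-92486131, minus strand: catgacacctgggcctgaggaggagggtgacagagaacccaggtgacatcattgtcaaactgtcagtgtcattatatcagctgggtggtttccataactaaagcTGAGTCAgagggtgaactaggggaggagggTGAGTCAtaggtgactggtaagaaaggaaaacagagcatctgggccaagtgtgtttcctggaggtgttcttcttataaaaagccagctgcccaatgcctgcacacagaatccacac
Sprr1b, chr3:92438780-92439029, minus strand: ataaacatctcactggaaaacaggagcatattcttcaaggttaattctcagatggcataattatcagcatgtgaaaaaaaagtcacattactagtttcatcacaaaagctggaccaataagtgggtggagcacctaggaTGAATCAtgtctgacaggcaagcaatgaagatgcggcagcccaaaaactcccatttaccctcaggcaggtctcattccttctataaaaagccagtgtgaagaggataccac
Ivl, chr3:92573736-92573985, minus strand: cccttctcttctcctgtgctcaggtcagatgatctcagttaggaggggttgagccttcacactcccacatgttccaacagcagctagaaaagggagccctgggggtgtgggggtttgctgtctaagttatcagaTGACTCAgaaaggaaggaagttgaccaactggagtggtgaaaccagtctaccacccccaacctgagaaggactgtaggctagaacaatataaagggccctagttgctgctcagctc
Dmkn, chr7:30763506-30763755, plus strand: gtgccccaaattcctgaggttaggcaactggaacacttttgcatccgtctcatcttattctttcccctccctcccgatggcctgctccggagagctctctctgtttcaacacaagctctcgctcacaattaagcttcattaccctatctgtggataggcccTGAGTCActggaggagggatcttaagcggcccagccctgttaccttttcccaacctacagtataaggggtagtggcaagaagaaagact
Ecm1, chr3:95739570-95739819, minus strand: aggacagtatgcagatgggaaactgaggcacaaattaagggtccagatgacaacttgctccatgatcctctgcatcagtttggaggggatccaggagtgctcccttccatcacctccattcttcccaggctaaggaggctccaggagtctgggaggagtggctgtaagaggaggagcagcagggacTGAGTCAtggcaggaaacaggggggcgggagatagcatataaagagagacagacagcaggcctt
Sprr1a alone had a pair of matches within a single window, which began 146 and 116 bases before the start. The match of Ivl also began at 116 bases, that of Sprr1b at 111 and that of Ecm1 at 64. Dmkn has windows for several starts. Its match began at 89 bases before the start in the window shown. An overlapping window held the same site at 91 bases, and a separate window (chr7:30776155-30776404) held another site at 82. Ecm1, with the smallest log2 fold change of the 10, and Dmkn, with a far larger one, both carried the motif. Whether the motif has a part in these differences was not tested.

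Ivl encodes involucrin, the early glutamine-rich scaffold of the envelope. Its normalized counts were 2042, 1837 and 1946 in UK-5099 replicates 1, 2 and 3, and 379, 381 and 376 in 3-inhibitor replicates 1, 2 and 3. The 3-inhibitor libraries were nearly alike, with an SD of 0.582% of their mean, and all UK-5099 libraries lay far above them. The group means were 1942 ± 103 and 379 ± 2.20 (SD, n = 3 each). The difference was a log2 fold change of 2.35 ± 0.06 (limma, adjusted p = 7.49e-11).

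The SPRR genes encode short proline-rich proteins that bridge other envelope proteins. Their 3 members here varied widely in level and in the difference between the groups. Sprr1a had 18911, 16314 and 19737.5 normalized counts under UK-5099 and 9282, 8978 and 8755 with the 3 inhibitors. It was abundant in both groups, and its difference was the smallest of the 3 (log2 fold change 1.02 ± 0.06; limma, adjusted p = 1.41e-07). Sprr3, known from oesophagus and other wet squamous linings, had 11981, 11438 and 12715 normalized counts under UK-5099 and 1832, 2113 and 1960.4 with the 3 inhibitors. This was 6.12-fold higher (log2 fold change 2.61 ± 0.06; limma, adjusted p = 5.65e-11). Sprr1b was low in both groups, with 113, 119 and 102 normalized counts under UK-5099 and 15.5, 15.2 and 10.96 with the 3 inhibitors. It was 7.62-fold higher with UK-5099 (log2 fold change 2.93 ± 0.21; limma, adjusted p = 4.76e-07). Sprr1a and Sprr1b have no stretch of 50 bases in common with each other or any other gene in GENCODE M21 transcripts, so reads of that length would tell them apart.

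Within a library, the ratio of Sprr3 to Sprr1a normalized counts was 0.660 ± 0.0363 under UK-5099 and 0.219 ± 0.0195 under the 3 inhibitors (SD, n = 3). That of Sprr1b to Sprr1a was 0.00614 ± 0.00106 and 0.00154 ± 0.000247. The libraries of the groups did not overlap in either ratio (two-sided exact permutation test; p = 0.1 for each, which no 3 against 3 design can go below, and 0.1 when adjusted over the 4 ratios computed).

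Cnfn encodes cornifelin, a small cysteine-rich component of the envelope. It stood at 4928, 4474 and 4869 normalized counts under UK-5099 and at 759.7, 783 and 843 with the 3 inhibitors. The groups were well apart (4757 ± 247 against 795 ± 43.1; log2 fold change 2.58 ± 0.05; limma, adjusted p = 5.52e-11).

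Dmkn and Sbsn encode dermokine and suprabasin, proteins secreted by suprabasal cells of stratified epithelia, and are direct neighbours on chromosome 7. Dmkn had a log2 fold change of 2.93 ± 0.05 (limma, adjusted p = 9.63e-12), rank 53 among the 15704 genes tested. Sprr1b ranked 54, and the order of this pair turned with the setting: with a pseudocount of 0.5 Sprr1b was at 2.97 and Dmkn at 2.93. Its normalized counts were 7688, 6986 and 7799.5 with UK-5099 and 981, 1004 and 960.1 with the 3 inhibitors. Sbsn had 6760.5, 6185 and 6596 normalized counts with UK-5099 and 2115, 2086 and 2138 with the 3 inhibitors. This was 3.08-fold higher with UK-5099 (log2 fold change 1.62 ± 0.04; limma, adjusted p = 1.96e-10). The ratio of Sbsn to Dmkn normalized counts was 2.15 ± 0.0741 with the 3 inhibitors and 0.870 ± 0.0214 with UK-5099 (two-sided exact permutation test; p = 0.1, the lowest attainable). Of the 50-base stretches of Sbsn transcripts, 6.96% are shared with transcripts of Tmem147os, so part of its reads cannot be assigned by sequence alone.

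Ecm1, which encodes a secreted matrix glycoprotein of skin, differed least. It had 8123, 7469.8 and 9792 normalized counts under UK-5099 and 7199, 6765 and 6878 with the 3 inhibitors. UK-5099 replicate 3 was the highest and the other 2 lay close to the 3-inhibitor libraries, although the groups did not overlap. The log2 fold change was 0.28 ± 0.08 (limma, adjusted p = 0.0116), and 0.17 without UK-5099 replicate 3 (adjusted p = 0.00343). Centring each library on its median ended the call of Ecm1 (0.19, limma, adjusted p = 0.0687), as did a limma fit with no variance trend (adjusted p = 0.0840). Its adjusted p ran from 0.000397 to 0.0840 across the alternatives.

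Tgm1 encodes the membrane-anchored transglutaminase that crosslinks involucrin at the cell periphery. Its normalized counts were 2873, 2696 and 2906 with UK-5099 and 870.0, 888 and 794 with the 3 inhibitors. The UK-5099 libraries were 3.32-fold higher, with little spread (2825 ± 113 against 851 ± 50.1; log2 fold change 1.73 ± 0.06; limma, adjusted p = 8.06e-10). Tgm3, the soluble transglutaminase of hair follicle and upper epidermis, was near the detection floor. It had 20, 24 and 11 reads in UK-5099 replicates 1, 2 and 3, and 3, 2 and 2 reads in the 3-inhibitor replicates. In normalized counts this was 18.7 ± 4.66 against 2.24 ± 0.742, a log2 fold change of 2.60 ± 0.42 (limma, adjusted p = 0.000277). With so few reads the size of this difference depends on the pseudocount of 1, and it was 1.69 with a pseudocount of 5 and 2.81 with 0.5. When any single UK-5099 library was left out, Tgm3 fell below the count minimum and was not tested. The ratio of Tgm3 to Tgm1 normalized counts was 0.00665 ± 0.00186 with UK-5099 and 0.00262 ± 0.00082 with the 3 inhibitors (two-sided exact permutation test; p = 0.1, the lowest attainable). The groups were parted only narrowly, by UK-5099 replicate 3 (0.00461, on 11 Tgm3 reads) and 3-inhibitor replicate 1 (0.00355, on 3). Because Tgm3 reached the count minimum only through its UK-5099 values, this ratio is a description only.

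Per kilobase of exon, with exon lengths from GENCODE M21, Sprr1a had the highest level in both groups, at 22731 ± 2216 normalized counts under UK-5099 and 11173 ± 328 under the 3 inhibitors (SD, n = 3). With UK-5099 it was followed by Sprr3 (9856 ± 524), Cnfn (6616 ± 343), Dmkn (3418 ± 201), Ecm1 (3356 ± 475), Sbsn (1797 ± 81.7), Ivl (1010.2 ± 53.5), Tgm1 (893 ± 35.7), Sprr1b (134 ± 10.1) and Tgm3 (4.51 ± 1.13). Dmkn and Ecm1 overlapped between libraries in this order, and other neighbours did not. With the 3 inhibitors Ecm1 was second (2756 ± 89.3), ahead of Sprr3 (1611 ± 115), Cnfn (1106 ± 60.0), Sbsn (583 ± 7.18), Dmkn (448 ± 9.91), Tgm1 (269 ± 15.8), Ivl (197 ± 1.15), Sprr1b (16.7 ± 3.04) and Tgm3 (0.541 ± 0.179), with no neighbours overlapping. Dmkn and Sbsn, and Ivl and Tgm1, thus stood in opposite orders in the 2 groups. The transcript forms used in these cells could change the lengths, which were taken over all annotated exons.

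**Figure D2:**
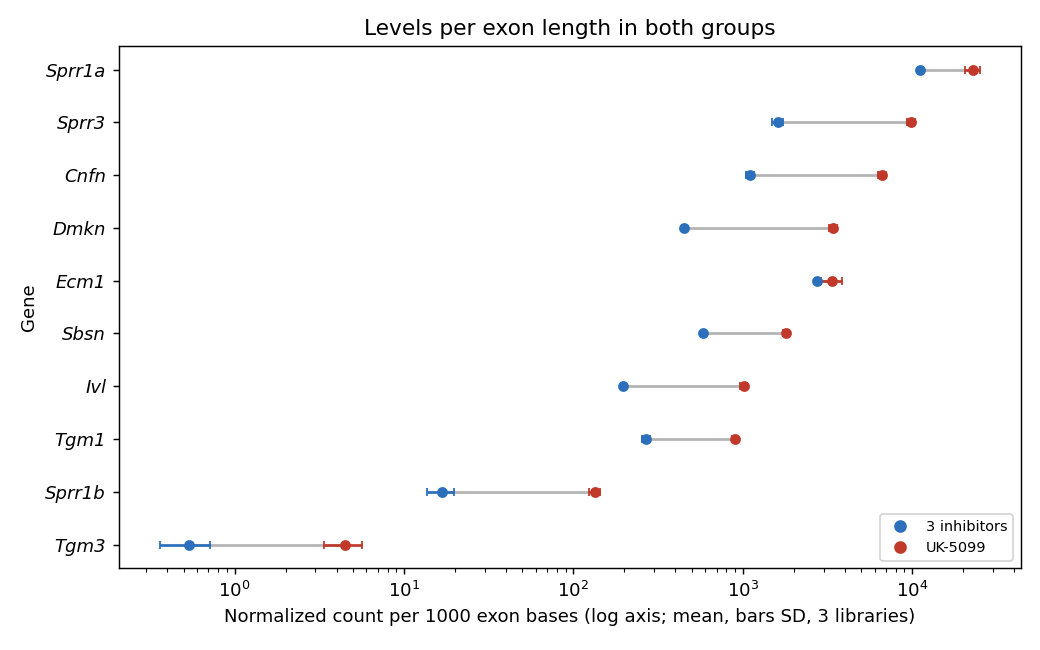
Normalized counts per kilobase of exon (log axis) for each gene, as the mean of 3 libraries with SD bars, blue for the 3 inhibitors and red for UK-5099. Sprr1a lies furthest right in both groups and Tgm3 furthest left, and Ecm1 has the shortest line between the groups.

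Together the 10 genes made up 0.260 ± 0.0165% of normalized counts under UK-5099 and 0.0956 ± 0.000332% under the 3 inhibitors (SD, n = 3). UK-5099 replicate 2 was the lowest UK-5099 library for 8 of the 10 genes, and it was the lowest for 40.5% of all genes tested. Sprr1b and Tgm3 were the exceptions, with their highest value there. Genes measured in the same library are not independent of each other.

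The genes lie in a few chromosomal neighbourhoods. Ivl, Sprr1a, Sprr1b and Sprr3 are in the epidermal differentiation complex on chromosome 3, a cluster of genes for envelope, SPRR, late cornified envelope and S100 proteins. Of 63 other genes of this complex in the table, from S100a1 to S100a11 in the order of RefSeq (GRCm38.p6), 25 passed the count minimum. Of these 25, 14 were higher with UK-5099, 5 lower and 6 not called, with a median log2 fold change of 0.37. Over all genes tested, 27.2% were called higher and 26.6% lower. The higher genes included an uninterrupted run of tested genes from Sprr2a1 to Ivl, with the untested Sprr2e, Sprr2i and Sprr4 between them. In that run Sprr2d and Sprr2h, and elsewhere in the complex Rptn, reached the count minimum only through their UK-5099 values. Lor, which encodes loricrin and lies on the far side of the Sprr2 genes, was lower (log2 fold change -0.87 ± 0.15; limma, adjusted p = 0.000509), as was Tchh near the other end (-0.59 ± 0.07; limma, adjusted p = 3.81e-05). Of 9 tested S100 genes of the complex, 4 were higher and 2 lower, with a median log2 fold change of 0.10, where 53.8% of all genes tested were called in either direction. On chromosome 7, Krtdap, which encodes a secreted protein of differentiating keratinocytes, follows Dmkn and Sbsn. It had 199, 229 and 151 normalized counts under UK-5099 and 9.28, 8.94 and 4.57 with the 3 inhibitors (log2 fold change 4.53 ± 0.28; limma, adjusted p = 1.27e-07). Its mean under the 3 inhibitors was below the count minimum, so it was tested only through its UK-5099 values. Tmem147 and Gapdhs on the other side of Sbsn had log2 fold changes of 0.42 ± 0.05 (limma, adjusted p = 1.80e-05) and -0.55 ± 0.23 (limma, adjusted p = 0.068).

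**Figure D3:**
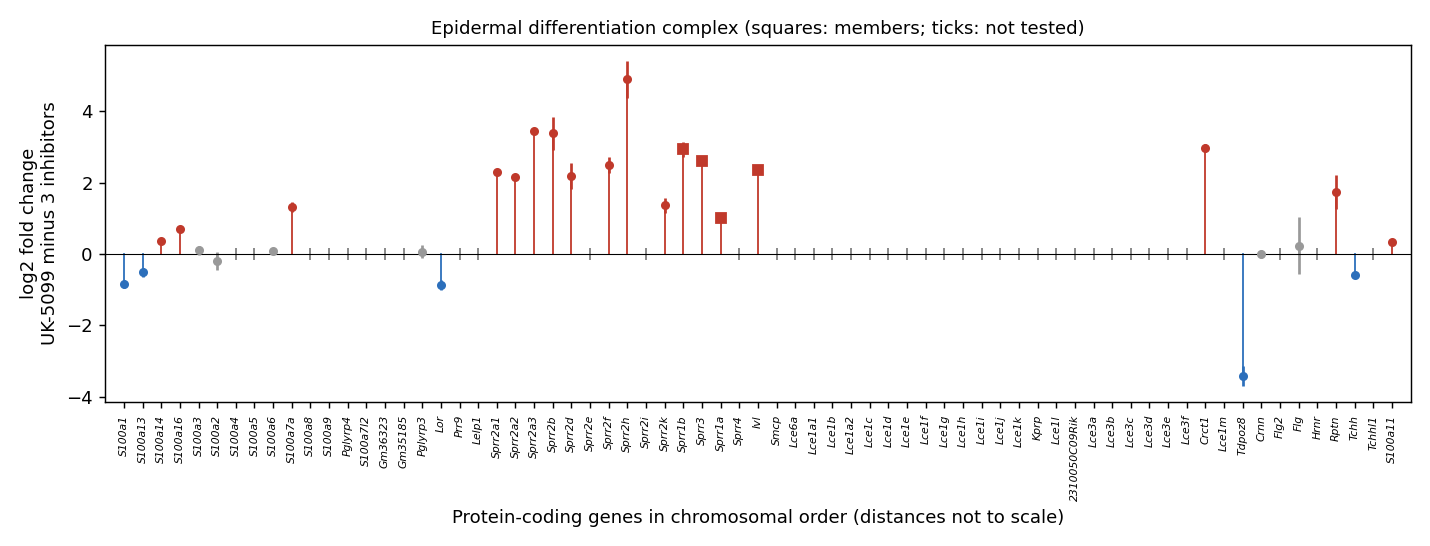
Log2 fold change (UK-5099 minus 3 inhibitors, bars SE of the fit) of the protein-coding genes of the epidermal differentiation complex in chromosomal order, with squares for the 4 members, red for higher, blue for lower, grey for not called and ticks for genes not tested. The red run from Sprr2a1 to Ivl stands between Lor, which was lower, and the untested late cornified envelope genes.

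Among the genes of the lists that follow, Sprr2d, Sprr2h, Rptn, Krtdap, Alox12b and Sdr9c7 reached the count minimum only through their UK-5099 values, so that they were tested because they were high there. The counts and medians of their lists include them and are descriptions. Of 12 other SPRR genes 9 were tested, with a median log2 fold change of 2.49. All 9 were called higher with UK-5099, against 27.2% of all genes tested. Of these, Sprr2d and Sprr2h had 4.94 ± 1.65 and 2.11 ± 1.89 normalized counts under the 3 inhibitors. Sprr2a1, Sprr2a2 and Sprr2a3 are near-identical, and 61.1% to 96.5% of their 50-base stretches occur in transcripts of other genes, 8 for each of them, so their separate levels are uncertain. Some of those genes lie outside the 3, so their sum is uncertain too. It ran from 165079 to 186221 normalized counts under UK-5099 and from 33619.7 to 37620.1 with the 3 inhibitors, and made up 0.727 ± 0.0381% and 0.149 ± 0.00707% of the library (SD, n = 3). Sprr2g, with no such overlap, had 229, 249 and 269 normalized counts under UK-5099 and 16.5, 14.3 and 17.4 with the 3 inhibitors (log2 fold change 3.87 ± 0.17; limma, adjusted p = 7.75e-09).

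Late cornified envelope genes were at most barely detected. None of the 21 reached the count minimum, 4 of them were at 0 in every library, and the highest single value was 4.87 normalized counts, for Lce3f. Among the S100 fused-type proteins, large repeat proteins of the cornified layer, 4 of 7 were tested. Rptn, one of those tested through its UK-5099 values, was higher (18.1 ± 5.29 against 5.22 ± 3.60 normalized counts, SD, n = 3; limma, adjusted p = 0.00926) and Tchh lower (337 ± 19.8 against 508 ± 20.1). Crnn, which encodes cornulin of squamous linings, had 311 ± 14.003 and 314 ± 49.5 normalized counts (limma, adjusted p = 0.969), and Flg, which encodes filaggrin, had 15.7 ± 15.8 and 12.7 ± 9.83 (limma, adjusted p = 0.829). Hrnr, chosen after its values were seen, was below the minimum with 0, 0.928 and 0 normalized counts under UK-5099 and 14.4, 12.5 and 25.6 with the 3 inhibitors.

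Of the other envelope precursors and scaffold proteins, 6 of 7 tested were higher and Lor was lower, with a median log2 fold change of 1.55. Over all genes tested, 27.2% were called higher and 26.6% lower. Besides Krtdap, Crct1 was 7.82-fold higher, Cst6, which encodes the protease inhibitor cystatin M/E, 3.19-fold higher, and Cdsn, which encodes the adhesive corneodesmosin, 2.94-fold higher (limma, adjusted p from 2.25e-09 to 3.89e-08). The plakins Evpl and Ppl encode envoplakin and periplakin and were added after their values were seen. They differed less, with log2 fold changes of 0.68 ± 0.05 and 0.20 ± 0.05. Lor had 69.3 ± 10.96 normalized counts under UK-5099 and 126 ± 6.13 under the 3 inhibitors (SD, n = 3). The gene of loricrin, the main late precursor in skin, was thus low in both groups and moved against the early precursors.

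Transglutaminases outside the set moved in both directions. Of 8 further genes of this family and its relatives 3 were tested. Tgm5, an epidermal form, was higher (log2 fold change 0.45 ± 0.10; limma, adjusted p = 0.00242), whereas Tgm2, the widely expressed tissue form, and Tgm4, known from prostate, were lower. Tgm2 had 77.2, 74.2 and 97.4 normalized counts under UK-5099 and 182, 211 and 206 with the 3 inhibitors (-1.27 ± 0.14; limma, adjusted p = 1.28e-05). Tgm4 had 23.8 ± 2.32 and 42.9 ± 5.45 (limma, adjusted p = 0.00821).

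Among enzymes of cornification and of the lipids bound to the envelope, 5 of 9 tested were higher and 2 lower (median log2 fold change 0.77). The shares called higher and lower were 27.2% and 26.6% over all genes tested. Alox12b, an epidermal lipoxygenase, had 119.9, 113 and 118 normalized counts under UK-5099 and 3.09, 0 and 0 with the 3 inhibitors, where it rested on 3 reads (limma, adjusted p = 1.21e-06). Elovl4, which elongates very long fatty acids, was 6.70-fold higher (limma, adjusted p = 6.40e-09), and Asprv1, a protease that processes profilaggrin, 3.60-fold higher (limma, adjusted p = 1.77e-06). Cers3, a ceramide synthase, had 4420 ± 132 and 2592 ± 81.2 normalized counts (SD, n = 3; limma, adjusted p = 6.40e-08). Of 10 regulators of cornification, 5 were higher, 1 lower and 4 not called (median log2 fold change 0.36), where 53.8% of all genes tested were called in either direction. Zfp750, a transcription factor of terminal differentiation, stood at 1142, 1022 and 1116 normalized counts under UK-5099 and at 457, 441 and 416 with the 3 inhibitors (log2 fold change 1.32 ± 0.07; limma, adjusted p = 2.62e-08). Hopx was 2.17-fold, Prdm1 1.80-fold and Cebpa 1.33-fold higher with UK-5099 (limma, adjusted p from 4.32e-09 to 0.00015). The 1 lower was Klf4 (-0.27 ± 0.05; limma, adjusted p = 0.000343), and Grhl3 did not pass the test (-0.01 ± 0.07; limma, adjusted p = 0.893), both named after their values were seen. Over the 7 lists, 42 of 78 genes were tested, of which 27 were higher and 7 lower. Of all genes tested, 27.2% were called higher and 26.6% lower.

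**Figure D4:**
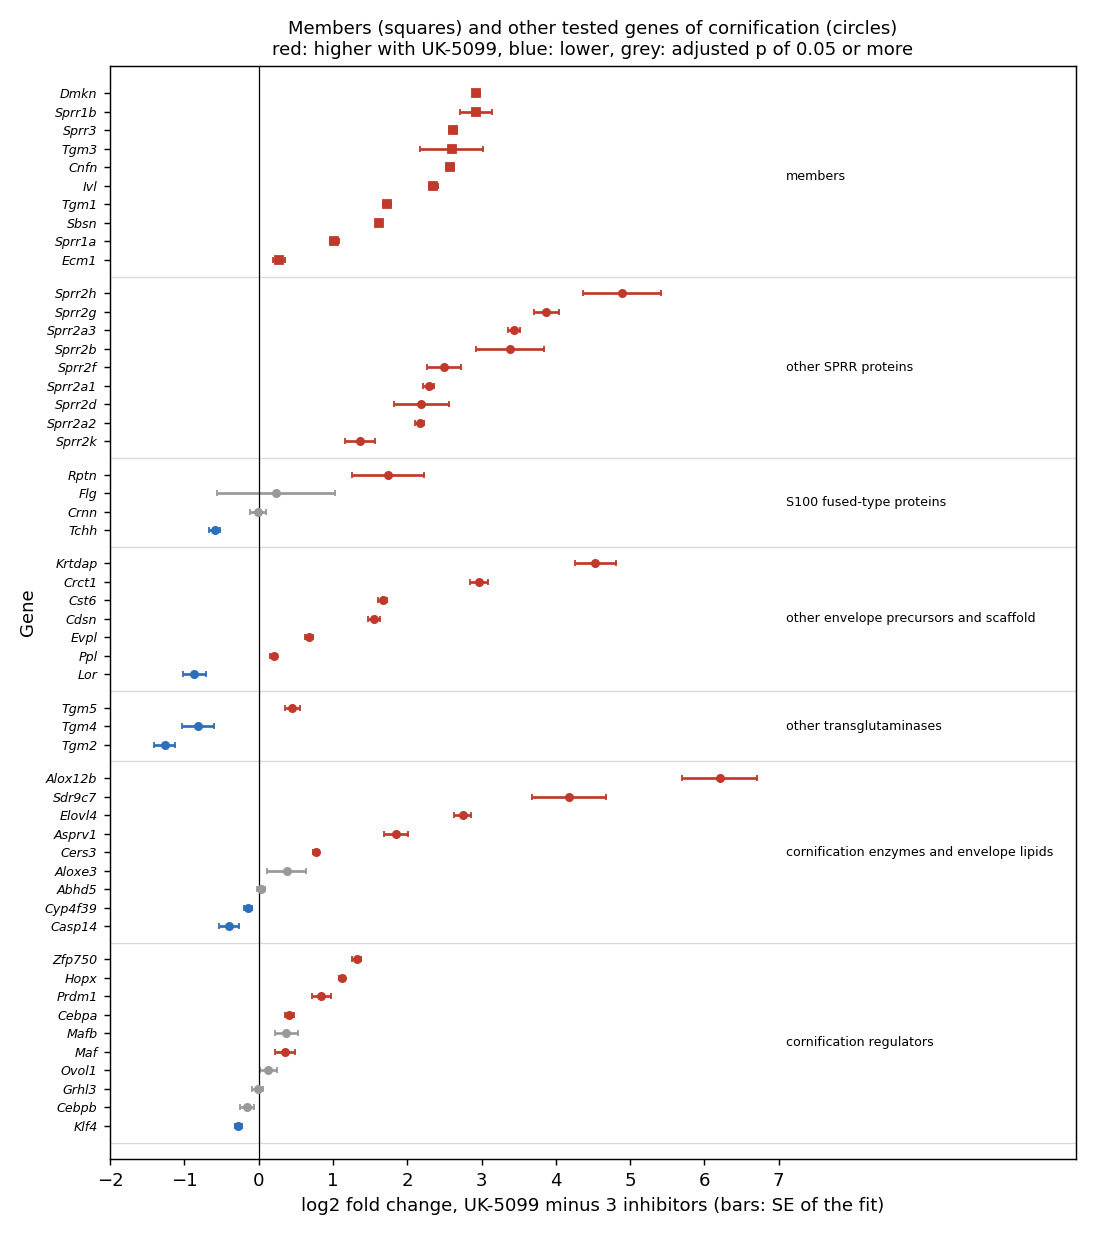
Log2 fold change (UK-5099 minus 3 inhibitors) with the SE of the fit for the 10 genes (squares) and the 42 other tested genes of cornification (circles), grouped by list, in red for higher, blue for lower and grey for not called. All squares lie right of 0, and of the other lists the SPRR genes are the one with every tested gene in red.

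By the distance between profiles over the 6 libraries, each centred on its own mean, the genes outside these lists most like Sprr1a, the member with the highest mean count, were Thrb, Notch3 and Col17a1 (distances of 0.0567, 0.0784 and 0.0929 on the log2 scale). Thrb encodes a thyroid hormone receptor, Notch3 a Notch receptor and Col17a1 a hemidesmosomal collagen of basal cells. Their log2 fold changes were 1.03 ± 0.09, 0.98 ± 0.08 and 1.00 ± 0.05. That these lie close to the value of Sprr1a follows from how the genes were picked.

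Recovered reads per library ranged from 19909589 to 27037795. Airway basal cell markers were expressed in every library, with a sum over 8 genes of 305618 to 331444 normalized counts under UK-5099 and 134157 to 146563 with the 3 inhibitors. Of these 8, 6 were called higher, against 27.2% of all genes tested. Ngfr was called lower (65.8 ± 12.8 against 304 ± 42.9 normalized counts) and Krt15 was not called (53435 ± 1737 against 56065 ± 3004). Most of the sum came from Krt5, Krt14, Krt15 and Krt17. Markers of other cells differed in both directions. The sum over 5 genes of hillock cells, the squamous-like cells of the airway, ran from 203873 to 218442 against 59639 to 65013. All 5 were called higher, again against 27.2% of all genes tested. Of them, Krt4 overlapped between the groups (log2 fold change 0.22 ± 0.07; limma, adjusted p = 0.0284). The sum over 8 secretory cell genes ran from 6821 to 8583 against 46179 to 48747, mostly from Cbr2 (6150 ± 611 against 42902.5 ± 1197). Of these 8, 4 were tested and all 4 called lower, against 26.6% of all genes tested. Muc5b reached the count minimum only through its 3-inhibitor values (8.13 ± 3.16 against 29.6 ± 5.59). Of 7 markers of epidermal suprabasal cells, among them Lor, Flg and Flg2 of the lists above, 3 were tested, with none higher, and their sum ran from 162 to 200.2 against 230 to 241. Krt1 was at 3.23 ± 1.47 and 1.93 ± 1.10 normalized counts (SD, n = 3). Sums over 6 fibroblast markers were 6.496 to 14.6 against 8.25 to 10.05, with Col1a2, Col3a1 and Lum at 0, those over 5 leukocyte markers 6.10 to 9.74 against 40.2 to 60.8, those over 5 endothelial markers 51.8 to 65.9 against 157 to 188, with Cdh5 at 0, and those over 6 multiciliated cell markers 97.4 to 109.6 against 74.2 to 109. Sex-linked genes, chosen after their values were seen, differed as well. Xist was higher with UK-5099 (24276 ± 1528 against 14246 ± 129 normalized counts). The Y-linked genes Ddx3y (422 ± 13.02 against 745 ± 34.6), Eif2s3y (243 ± 18.1 against 458 ± 39.8), Kdm5d (122 ± 22.4 against 261 ± 38.8) and Uty (151 ± 15.7 against 228 ± 15.3) were lower. All were above 0 in every library. The labels give no sex, and whether the groups differed in the sex of their animals was not tested. The part of these differences in the results was not tested.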

How the data were processed

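The 6 RNA-seq libraries were made with a VAHTS Universal V8 kit, per the labels. HISAT2 2.1.0, DESeq2 1.36.0 and the GRCm39 build are listed, without roles, per the submitters' processing notes. Which counter, strand setting and annotation were used is not given in the sources used here. Values in the authors' deposited table have a unit other than raw counts, namely the log2 of counts that the authors divided by a size factor, with a text mark for 0.

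Here 359 rows that repeated a gene were dropped, values were raised from log2, and reads were recovered by dividing by the lowest value above 0 per library (at least 99.9875% of values within 0.02 of a whole read). After a pseudocount of 1, log2 values went into limma 3.58.1 under R 4.3.3 (trend, two-sided, no covariates, Benjamini-Hochberg over 15704 genes, threshold 0.05) and the steps were tested on simulated data. Since the values were not raw counts, no count test was the main result. The genes and lists were chosen with earlier results of these data known. All 10 set genes, the 4 tested genes of each list with the smallest adjusted p and the 3 genes nearest in profile were named. Same-numbered replicates were treated as unpaired. Alternatives were rescaling, filters, pseudocounts, voom, a replicate block and leaving out libraries. No coordinate was converted between builds. Python 3.11.15 with pandas 2.3.3, numpy 2.4.6, scipy 1.17.1 and matplotlib 3.10.9 was used.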

Additional observations from a re-analysis of the deposited data

How the results depend on the processing

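The alternatives were followed for the 36 genes named by the rule above. Of these, 33, including 9 of the 10 envelope and transglutaminase genes, kept direction and side of the threshold under every alternative that tested them. The exceptions were Ecm1, given above, Crnn and Flg. Other genes given with a fit result, such as Lor, Evpl, Ppl, Klf4, Grhl3, Krt4 and Tmem147, were not followed across the alternatives. Neither Crnn nor Flg was called under any alternative, but their sign turned: Crnn went from -0.01 to 0.0234 after upper-quartile rescaling and to 0.03, 0.02 and 0.10 without UK-5099 replicate 2, 3-inhibitor replicate 1 and 3-inhibitor replicate 2, with a range of -0.13 to 0.10 over single libraries left out. Flg went from 0.23 to -0.53 and -0.64 without UK-5099 replicate 1 and 3-inhibitor replicate 1, in a range of -0.64 to 0.91. The cause was not tested. The number of the 10 genes called was 9 or 10 throughout: it was 9 with a minimum mean of 50 and without each UK-5099 replicate, where Tgm3 was not tested, and 9 where the call of Ecm1 ended. Over all genes 8449 were called, 8570 by voom on recovered reads and 7336 to 9146 without a single library. Of those called 50.6% were higher, and 39.1% were when libraries were centred on the median, which moved the median of all genes by -0.09. With the replicate number as a block 8423 genes and all 10 set genes were called. Deviations of same-numbered replicates correlated at -0.017, 0.116 and -0.0886, so the numbers gave no sign of pairing. At the depth here genes of a few reads, such as Tgm3 and the late cornified envelope genes, are limited by counting error.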
